A study of Mus musculus with 6 samples.

Results

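The genes described here are 9 genes of developing red blood cells that make heme, build the red cell membrane or control the erythroid program: Alas2, Fech, Ahsp, Slc4a1, Epb42, Klf1, Gata1, Hemgn and Tal1. They were taken by gene name, and the names were chosen by the measured values themselves, because erythroid genes had been seen to be high in a single control library, control replicate 2. Of the 9 names, 8 were found among the 25576 genes with a value in the files, and Ahsp was not analysed here. The data are bulk-seq (RNA sequencing of whole tissue) of spinal cord from FVB mice on postnatal day 4, with 3 libraries of a severe model of spinal muscular atrophy (SMA) and 3 control libraries. SMA mice had the genotype mSmn-/-, hSMN22tg/0, so that they lacked mouse Smn and carried the human SMN2 transgene. Control mice were mSmn+/-, hSMN22tg/0, and thus carried the same transgene beside a single working mouse allele, so neither group was wild type. The study's methods give bulk-seq as triplicates with n = 1 per group, and nothing states that the libraries came from separate animals. The p-values therefore measure only the spread between these libraries, which may be technical.

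Erythroblasts are the nucleated precursors of red blood cells and mature in the bone marrow and, around birth, in the liver and spleen, in contact with macrophages. They take up iron, assemble heme in mitochondria and cytosol, fill with globin and build a flexible membrane skeleton, then lose their nucleus and circulate as reticulocytes that still hold RNA for globin and some other genes. The transcription factors GATA1, TAL1 and KLF1 switch on much of this program. The spinal cord itself makes no red cells. In bulk tissue, fewer cells of a type cannot be told apart from less RNA per cell.

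Expression is given as FPKM, a fragment count divided by exon length and by library size, which the authors computed for each library. Where the values of a group are listed, they stand in the order of replicates 1, 2 and 3. The libraries held 21197 to 22296 genes above 0, and their FPKM summed to 346181 to 413653. The depth in reads is unknown from FPKM. Relative to SMA replicate 1, the depth estimated from the commonest ratio between values below 0.15 FPKM lay between 1.00 and 1.15. Smn1, the gene disrupted in SMA mice, was 10.4, 8.64 and 11.9 FPKM in the control libraries and 8.48, 9.30 and 11.1 FPKM in the SMA libraries. The groups overlapped, so the genotype labels have no check in these values, and control and SMA below mean the libraries labelled so. Control replicate 2 stood apart from the other libraries before any comparison: over genes averaging 0.5 FPKM or more, its log2(FPKM + 1) correlated with that of the other 5 libraries at r = 0.836 to 0.849 across genes, against 0.983 to 0.992 among those 5. Genes are not independent replicates, so this is a description of the libraries.

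All 8 genes were highest in control replicate 2, as were 24.7% of the 17088 genes that averaged 0.5 FPKM or more, the share against which the counts of the gene lists can be read. The 8 genes summed to 286 FPKM there, against 27.9 and 19.4 FPKM in control replicates 1 and 3 and 17.0, 20.6 and 19.4 FPKM in the SMA libraries. The level in control replicate 2 was between 4.39 and 122 times the median of the other 5 libraries. On the log2(FPKM + 1) scale, all 8 were at least 2-fold above the highest of the other 5 libraries, as were 6.68% of those 17088 genes. Because the genes were picked for their level in this library, that count was fixed by the choice and no test was made. The median of the 8 differences, control replicate 2 minus the median of the other 5 libraries, was 3.52 on that scale, with a range from 2.01 to 5.02. The median over all 17088 genes was -0.13, or -0.28 after every library was rescaled to the same summed FPKM, when the median of the 8 genes was 3.36. Among the other 5 libraries, control replicate 1 had the highest value for 7 of the 8 genes, the exception being Gata1, and for 26.6% of the 17088 genes.

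**Figure D1:**
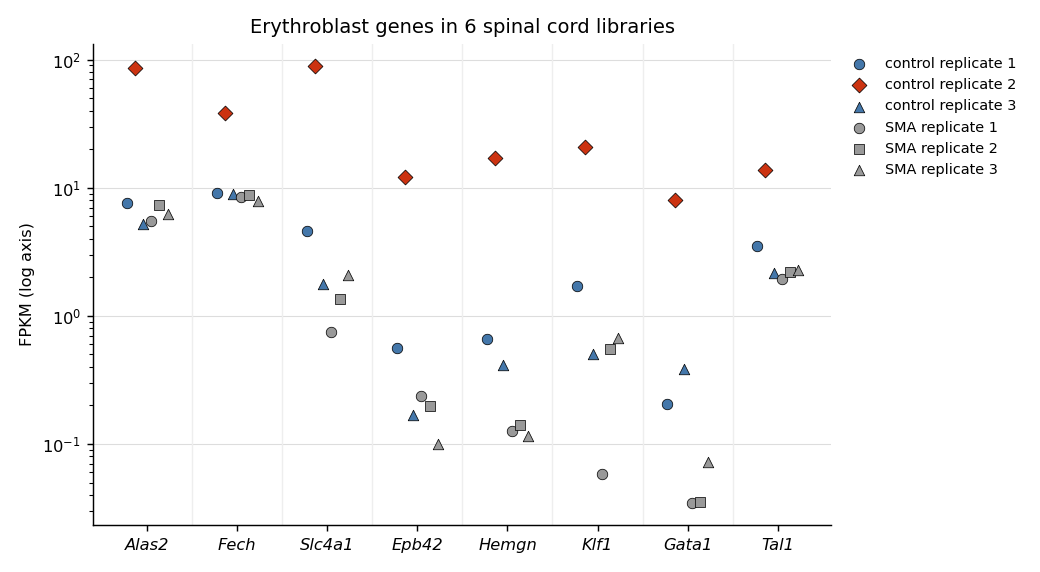
FPKM of the 8 erythroblast genes (x axis) in each of the 6 libraries on a log axis, with 1 point per library. The red diamonds of control replicate 2 lie above all other points for every gene, from 7.95 FPKM for Gata1 to 89.3 FPKM for Slc4a1.

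Alas2 encodes the erythroid form of 5-aminolevulinate synthase, the enzyme of the committed and rate-limiting step of heme synthesis. The controls had 7.64, 86.2 and 5.19 FPKM, and the SMA libraries 5.52, 7.35 and 6.20 FPKM. Control replicate 2 was 13.9 times the median of the other 5 libraries, which lay within a narrow range with both groups mixed. Fech encodes ferrochelatase, which inserts iron into protoporphyrin in the last step of the pathway. It was 9.01, 38.4 and 8.86 FPKM in the controls and 8.38, 8.75 and 7.90 FPKM in SMA, so control replicate 2 was 4.39 times the median of the others. Fech is used by all cells that make heme, and its level outside control replicate 2 was the highest of the 8 genes by median, at 8.75 FPKM. The gene lies at chr18:64456550-64489066 and Alas2 at chrX:150519519-150643878 (mm10, spans as in the files). The span of Alas2 also takes in Apex2 and Pfkfb1, whereas GENCODE M21 places Alas2 itself at chrX:150547375-150570638 on the plus strand, overlapping Apex2 and Mir3620 on the minus strand. The libraries were strand-specific, but whether the quantification used the strand is not given in the sources used here.

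Of the 9 heme synthesis enzymes, 8 were highest in control replicate 2, and 6 were at least 2-fold above every other library. Both counts include Alas2 and Fech, picked for their level there. Alad, which had the highest mean of the list over the 6 libraries, was 72.8 FPKM in control replicate 2 against 22.7 to 28.9 FPKM in the other libraries, and Urod, which decarboxylates uroporphyrinogen, was 43.5 FPKM against 15.3 to 19.7 FPKM. The exception was Alas1, the form of 5-aminolevulinate synthase used outside the red cell lineage. It was 14.8, 12.3 and 13.7 FPKM in the controls and 10.5, 12.7 and 13.6 FPKM in SMA, so control replicate 2 lay inside the range of the others. Alas1 was named after its values were seen. The 2 forms of the first enzyme thus differed in control replicate 2, the erythroid form being high and the other not.

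A further list holds genes that bring iron and heme precursors to erythroblast mitochondria. Of 12 such genes, 10 were highest in control replicate 2 but only 3 were at least 2-fold above every other library, namely Tfrc, Slc25a37 and Steap3. Slc25a37 (mitoferrin-1), which carries iron into mitochondria, was 76.0 FPKM in control replicate 2 and 4.39 to 7.67 FPKM elsewhere. Tfrc, the transferrin receptor, was 89.2 FPKM against 31.0 to 42.0 FPKM. Snx3, which sorts the transferrin receptor in endosomes, was 62.7 FPKM against 62.3 to 75.7 FPKM, and Glrx5, a mitochondrial iron-sulfur cluster protein, was 58.6 FPKM against 31.2 to 45.8 FPKM. The median difference of this list, which holds no picked gene, was 0.57 on the log2(FPKM + 1) scale. That of the heme enzymes, which include the picked genes Alas2 and Fech, was 1.43. The difference between the lists was not tested.

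Slc4a1 encodes band 3, the chloride-bicarbonate exchanger that is the main integral protein of the red cell membrane. The controls had 4.55, 89.3 and 1.77 FPKM, and the SMA libraries 0.741, 1.35 and 2.09 FPKM. Control replicate 2 was 50.4 times the median of the others and 19.6 times control replicate 1, the highest of them. Epb42 encodes protein 4.2, which binds band 3 and ties it to the spectrin skeleton. It was 0.565, 12.02 and 0.167 FPKM in the controls and 0.236, 0.198 and 0.101 FPKM in SMA. Control replicate 2 was 60.6 times the median, and the other 2 controls and the SMA libraries overlapped for both genes. Slc4a1 lies at chr11:102348824-102366203 and Epb42 at chr2:121017891-121037072, both on the minus strand, and no other gene of GENCODE M21 overlaps either of them.

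Of the 17 genes for the red cell membrane and its skeleton, 15 were highest in control replicate 2 and 10 were at least 2-fold above every other library, and both counts include Slc4a1 and Epb42, picked for their level there. The genes of the list with the highest means over the 6 libraries did not reach that difference. Add2 (beta-adducin) was 30.7 FPKM in control replicate 2 and 32.7 to 41.3 FPKM elsewhere, Sptb (beta-spectrin) was 32.3 against 26.3 to 29.5 FPKM, and Epb41 (protein 4.1) was 32.0 against 14.5 to 16.8 FPKM. These 3 proteins are known from the membrane skeleton of neurons as well.

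Klf1 encodes the erythroid Krüppel-like factor that activates adult beta-globin and many membrane and heme genes. Its level was 1.72, 20.8 and 0.5004 FPKM among controls and 0.0582, 0.550 and 0.667 FPKM in SMA. Control replicate 2 was 37.8 times the median, and SMA replicate 1 was the lowest by a wide margin. Gata1 encodes the zinc-finger factor required for erythroid and megakaryocytic maturation. It was 0.206, 7.95 and 0.385 FPKM in the controls and 0.0346, 0.0355 and 0.0719 FPKM in SMA, a ratio of 110 for control replicate 2 to the median of the others. Outside control replicate 2 every Gata1 value was low, and both remaining controls lay above all 3 SMA libraries. Hemgn encodes hemogen, a nuclear protein of hematopoietic cells. It was 0.661, 17.2 and 0.413 FPKM in the controls and 0.125, 0.141 and 0.114 FPKM in SMA. Its ratio of 122 was the highest of the 8 genes, and again both remaining controls lay above all SMA libraries. Tal1 encodes a basic helix-loop-helix factor of blood stem cells, erythroblasts and endothelium that also acts in V2b interneurons of the spinal cord. It was 3.50, 13.7 and 2.15 FPKM in the controls and 1.95, 2.21 and 2.27 FPKM in SMA, 6.19 times the median in control replicate 2. Its level in the other libraries was the highest of the 4 regulators.

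Klf1 lies at chr8:84901928-84905295, Gata1 at chrX:7959260-7978071, Hemgn at chr4:46393989-46413506 and Tal1 at chr4:115056426-115071755 (mm10, from the files). No other gene of GENCODE M21 overlaps these 4 genes. Of the 15 erythroid transcriptional regulators, 11 were highest in control replicate 2 and 8 at least 2-fold above every other library, and both counts include the 4 genes picked for their level there. Gfi1b, a repressor of erythroid and megakaryocytic cells, was 6.30 FPKM in control replicate 2 and 0 to 0.0985 FPKM elsewhere, and Nfe2 was 13.5 FPKM against 0.102 to 0.769 FPKM. Both were named after their values were seen. The genes of the list with the highest means over the 6 libraries, which the spinal cord also expresses, were not among the 8. Ldb1, a partner of the GATA1 and TAL1 complex, was 27.1 FPKM against 27.8 to 30.2 FPKM. Bcl11a was 18.5 FPKM in control replicate 2, below the 25.9 to 30.5 FPKM of the others, and Sox6 was 28.4 FPKM against 13.9 to 21.3 FPKM. The V2b interneuron list, Gata2, Gata3 and Tal1, split in the same way. Gata2 was 1.19 FPKM in control replicate 2 and 0.415 to 1.32 FPKM elsewhere, and Gata3 was 0.638 FPKM against 0.373 to 1.13 FPKM, so only Tal1, picked for its level there, was highest in control replicate 2.

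To show what lies before the start sites of 4 of the genes, their DNA is printed with the letters that GATA factors, KLF1 and TAL1 complexes are known to bind in other genes. RefSeq start sites (GRCm38.p6) were given for Alas2, Epb42, Hemgn, Klf1, Gata1 and Tal1, the last with 2 windows. The 250 bases before each start site were searched on both strands for AGATAA, for TGATAA, for CCNCNCCC and for CAGATG, where overlapping matches are counted separately. Each window is printed 5′ to 3′ on the gene's strand up to the last base before the first exon of GENCODE M21, with every complete match in capitals. AGATAA is read as TTATCT on the other strand while TGATAA is read as TTATCA, and CAGATG shares the letters AGAT with AGATAA. The stretch of Alas2 is chrX:150547167-150547374 on the plus strand, with 1 AGATAA match that begins 86 bases before the start site, and 4 CCNCNCCC matches lie in the bases not printed. The stretch of Epb42 is chr2:121037073-121037127 on the minus strand, with 1 AGATAA and 1 CAGATG match, a further CAGATG lying in the bases not printed. The stretch of Klf1 is chr8:84901732-84901927 on the plus strand, with 1 TGATAA match 80 bases before the start site and 1 CAGATG match that runs past the last printed base and so is not in capitals. The stretch of Gata1 is chrX:7967911-7968160 on the minus strand, which lies within the gene's span before an inner start site and has 3 CCNCNCCC matches and none of the other motifs.
Alas2: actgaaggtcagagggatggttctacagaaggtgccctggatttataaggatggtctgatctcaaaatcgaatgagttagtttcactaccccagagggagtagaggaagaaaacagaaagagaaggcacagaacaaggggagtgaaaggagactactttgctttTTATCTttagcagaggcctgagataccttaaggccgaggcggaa
Epb42: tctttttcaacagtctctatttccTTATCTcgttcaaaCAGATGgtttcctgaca
Klf1: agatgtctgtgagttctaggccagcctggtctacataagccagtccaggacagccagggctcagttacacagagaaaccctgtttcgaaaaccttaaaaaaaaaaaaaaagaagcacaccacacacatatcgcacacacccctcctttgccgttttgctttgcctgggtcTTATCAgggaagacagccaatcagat
Gata1: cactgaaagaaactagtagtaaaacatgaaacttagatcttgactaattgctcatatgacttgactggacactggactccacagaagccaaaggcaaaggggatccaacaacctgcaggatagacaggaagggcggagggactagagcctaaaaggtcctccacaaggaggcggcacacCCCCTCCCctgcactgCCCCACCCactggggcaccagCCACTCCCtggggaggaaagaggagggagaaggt

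AGATAA or TGATAA was present in 5 of the 7 windows of these genes, and in 16.6% of all 32851 RefSeq windows of the same length. The windows with it were those of Alas2, Epb42, Hemgn and Klf1 and 1 of the 2 windows of Tal1. CCNCNCCC was present in 4 of the 7 windows, against 45.9% of all windows. CAGATG was present in 2 of the 7 windows, those of Epb42 and Klf1, against 14.4% of all windows. A match is a description of the letters and not evidence that a factor binds there, and the windows were not chosen independently of expression.

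**Figure D2:**
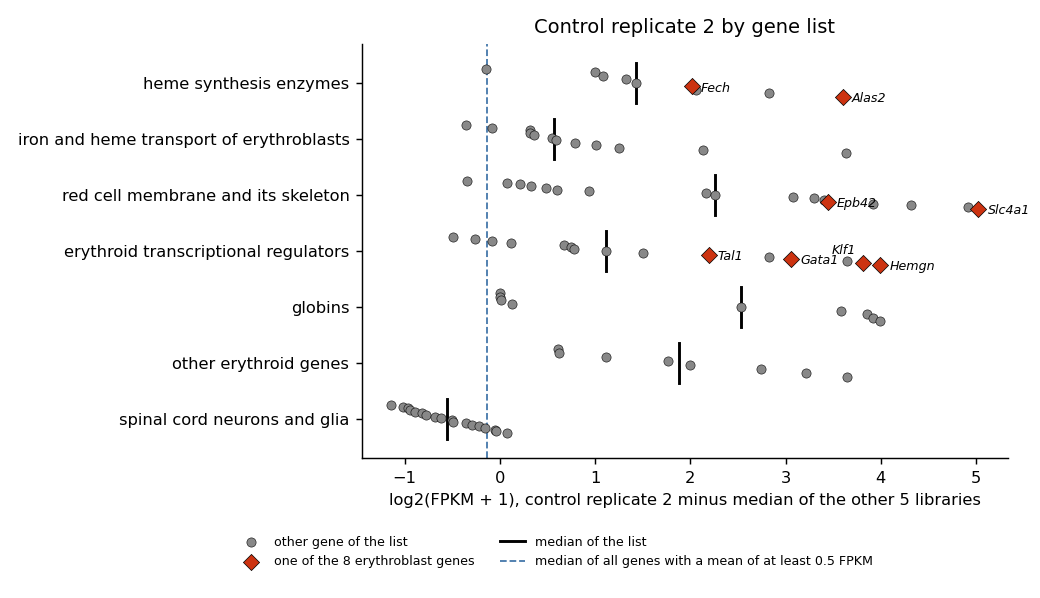
Difference in log2(FPKM + 1) between control replicate 2 and the median of the other 5 libraries (x axis) for each gene of 7 lists (y axis), where each point is a gene, red diamonds are the 8 erythroblast genes, black bars are list medians and the dashed line is the median of all 17088 genes, -0.13. The erythroid lists reach from below 0 to 5.02, and the spinal cord genes lie between -1.14 and 0.07.

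Adult globins rose with these genes in control replicate 2. Hba-a1, Hba-a2, Hbb-bs and Hbb-bt, the adult alpha- and beta-globin genes, summed to 18593 FPKM there, against 1846 and 1171 FPKM in control replicates 1 and 3 and 1108, 1709 and 1324 FPKM in the SMA libraries, a ratio of 14.0 to the median of the others. The 3 most abundant were Hbb-bs at 7026 FPKM against 424 to 694 FPKM, Hba-a1 at 5964 against 377 to 617 FPKM and Hba-a2 at 4702 against 267 to 478 FPKM. Of 9 globin genes in the files, 5 were highest in control replicate 2. Of 8 other erythroid genes, all 8 were highest there and 6 at least 2-fold above every other library, the most abundant being Bnip3l, which clears mitochondria from reticulocytes, at 44.3 FPKM against 27.2 to 30.7 FPKM. Bpgm was 38.0 FPKM against 21.6 to 26.4 FPKM and Xpo7 13.0 FPKM against 4.94 to 5.61 FPKM.

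Among the genes whose log2(FPKM + 1) over the 6 libraries was most like the mean of the 8 genes were Car2, Slc25a37, Pcbd1 and Ermap, with Pearson r of 0.9997, 0.9996, 0.9991 and 0.9989. Car2, a carbonic anhydrase that is abundant in red cells and in oligodendrocytes, was 139 FPKM in control replicate 2 and 19.3 to 27.3 FPKM elsewhere. Ermap, an erythroblast membrane protein, was 26.2 FPKM against 0.286 to 1.32 FPKM. These correlations rest mainly on control replicate 2, and 228 of 17080 genes (1.33%) exceeded 0.99. Over the other 5 libraries alone, r with the mean of the 8 genes was 0.9899 for Car2, 0.984 for Slc25a37, 0.974 for Pcbd1 and 0.970 for Ermap. The share of all genes with such r over 5 libraries was not computed, and these genes were picked over 6 libraries. Among the 5, the mean log2(FPKM + 1) of the 8 genes was 1.77 in control replicate 1 and 1.11 to 1.35 in the rest.

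Markers of other cell types were also high in control replicate 2. All 20 hepatocyte genes were highest there, and the list summed to 32794 FPKM, or 7.93% of the library, against 113 and 79.4 FPKM in control replicates 1 and 3 and 70.1, 131 and 72.6 FPKM in the SMA libraries. Its most abundant gene, Alb, was 15894 FPKM against 24.6 to 56.2 FPKM, followed by Ahsg and Afp at 4921 and 2929 FPKM. In the other libraries every hepatocyte gene was above 0 except Tat, which was listed at 0 in control replicate 1. All 11 neutrophil granule genes were highest in control replicate 2, with sums of 482 FPKM there, 14.0 and 9.52 FPKM in the other controls and 6.97, 8.98 and 9.90 FPKM in SMA, S100a8 being the most abundant at 205 FPKM. Elane, which marks immature neutrophils, was 9.18 FPKM in control replicate 2 and at 0 in control replicate 3 and SMA replicate 1. All 8 genes of erythroblastic island and liver macrophages were highest in control replicate 2, with sums of 66.0 FPKM there, 14.9 and 15.6 FPKM in the other controls and 13.2, 13.7 and 13.1 FPKM in SMA. The most abundant was Vcam1, at 24.3 FPKM against 12.7 to 15.4 FPKM, so outside control replicate 2 the sums were nearly all Vcam1. Cd5l was 11.8 FPKM in control replicate 2 and at 0 in control replicate 3 and SMA replicates 1 and 3. Elane was named after its values were seen. Their part in the levels of the erythroblast genes was not tested.

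Of 10 megakaryocyte and platelet genes, 9 were highest in control replicate 2, with sums of 69.1 FPKM there, 27.6 and 25.4 FPKM in the other controls and 24.1, 21.7 and 25.0 FPKM in SMA. Gp1bb, which had the highest mean over the 6 libraries, was 17.4 FPKM there and 18.3 to 24.1 FPKM elsewhere, whereas Ppbp was 23.9 FPKM there and 0.0648 to 0.457 FPKM elsewhere and Pf4 17.6 FPKM against 0.423 to 2.60 FPKM. Only 2 of the 8 mast cell and eosinophil genes, Cpa3 and Prg2, were highest there, with 4 of the 8 at 0 in that library. That list summed to 0.968 FPKM in control replicate 2, 1.20 and 0.343 FPKM in the other controls and 0.221, 0.415 and 0.334 FPKM in SMA. Of 8 endothelial genes, 5 were highest in control replicate 2, and the list summed to 84.9 FPKM in control replicate 2, 60.6 and 72.9 FPKM in the other controls and 52.5, 42.8 and 46.6 FPKM in SMA, with Cldn5, which had the highest mean over the 6 libraries, at 20.4 FPKM there against 14.4 to 25.8 FPKM. Of 18 genes of spinal cord neurons and glia, 0 were highest in control replicate 2, and they summed to 1550 FPKM there, 2157 and 2515 FPKM in the other controls and 2001, 2217 and 2216 FPKM in SMA. Stmn2 was 235 FPKM there against 416 to 468 FPKM, and Mbp, the most abundant, was 445 FPKM against 375 to 695 FPKM. The tissue's own genes were thus present in every library.

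To set each erythroblast gene against the amount of globin RNA, a scale chosen after the values were seen, FPKM was divided by the summed adult globin FPKM of the same library and multiplied by 1000. On this scale Alas2 was 4.14, 4.64 and 4.43 in the controls and 4.98, 4.30 and 4.68 in SMA. The highest of the 6 was 1.20 times the lowest, so that Alas2 kept nearly the same ratio to globin in control replicate 2 as in the other libraries. For the other 7 genes, control replicate 2 lay outside the range of the other libraries. Hemgn was 0.925 in control replicate 2 and 0.0826 to 0.358 in the others, Gata1 was 0.427 against 0.0208 to 0.329, Epb42 0.646 against 0.0761 to 0.306, Slc4a1 4.80 against 0.669 to 2.47, and Klf1 1.12 against 0.0525 to 0.929. These 5 genes were thus highest in control replicate 2 relative to globin as well. Klf1 had the lowest ratio to the next library, control replicate 1, at 0.929. Fech and Tal1 went the other way. Fech was 2.06 in control replicate 2 and 4.88 to 7.57 elsewhere, and Tal1 was 0.736 against 1.29 to 1.90. Both were thus lowest in control replicate 2 on this scale.

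**Figure D3:**
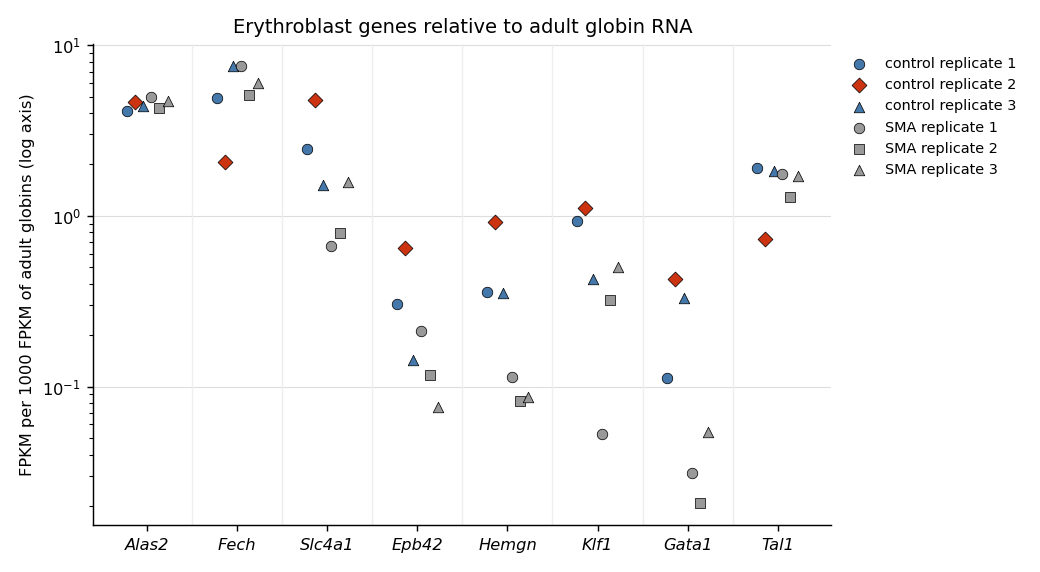
FPKM of the 8 erythroblast genes (x axis) per 1000 FPKM of summed adult globins, on a log axis, with 1 point per library. The 6 points of Alas2 lie between 4.14 and 4.98, while the SMA points of Hemgn (0.0826 to 0.113) and Gata1 (0.0208 to 0.0543) lie below all control points.

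SMA and control were then compared without control replicate 2, the library for which the genes had been picked, with 3 SMA and 2 control libraries. Genes averaging 0.5 FPKM or more in these 5 libraries were fitted with limma on log2(FPKM + 1), a scale that understates the change of low genes, and p-values were adjusted over all 16574 genes tested. Of the 8 erythroblast genes, 5 passed this filter, and Epb42, Hemgn and Gata1, which had passed over 6 libraries only through control replicate 2, did not. At an adjusted p under 0.05, limma called 0 of the 5 genes and 0.0121% of all genes, which was 2 genes. These were Snora74a, listed at 0 in both controls and at 5.56 to 10.5 FPKM in SMA, and Rpph1, at 72.3 and 73.1 FPKM in the controls and 109 to 115 FPKM in SMA. Control replicate 2, left out of this fit, had 2.99 FPKM of Snora74a and 74.8 FPKM of Rpph1. At an unadjusted p under 0.05, limma called 0 of the 5 genes (1 after rescaling to the same summed FPKM, Slc4a1), against 10.5% of all genes, which were 862 lower and 874 higher in SMA, or 1462 lower and 521 higher after rescaling to the same summed FPKM. At the study's thresholds, an unadjusted p under 0.05 and a fold over 2, limma called 0 of the 5 genes and 0.139% of all genes. Without control replicate 3 as well, 3 of the 5 genes (Slc4a1, Klf1 and Tal1) passed the unadjusted threshold, as did 1368 lower and 1363 higher of all 16603 genes tested then, and Slc4a1 passed the study's thresholds, as did 35 lower and 33 higher genes. Without SMA replicate 3, Slc4a1 passed the unadjusted threshold, as did 533 lower and 524 higher of all 16562 genes, and in both settings 0 of the 5 genes passed after adjustment.

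Alas2 did not differ beyond its error, with a log2 difference (SMA minus control) of 0.00 ± 0.17 (SE, limma, adjusted p = 0.998) and a 95% confidence interval from -0.40 to 0.40. Fech was -0.09 ± 0.09 (limma, adjusted p = 0.765), although both control values lay above the 3 SMA values. Slc4a1 had the lowest estimate, -0.75 ± 0.33 (limma, adjusted p = 0.492), with overlapping groups and an exact two-sided permutation p of 0.3. It rested on control replicate 1: the estimate was -0.25 without control replicate 1 and -1.25 without control replicate 3. Klf1 was -0.53 ± 0.30 (limma, adjusted p = 0.576) and Tal1 -0.26 ± 0.18 (limma, adjusted p = 0.644), each with overlapping groups. Without control replicate 1 the estimate of Klf1, which then lay under the filter, was -0.10, and without control replicate 3 it was -0.96. Without control replicate 1 the estimate of Tal1 was -0.00419, and without control replicate 3 it was -0.52.

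The 3 genes under the filter were taken from a limma fit over all 25081 genes above 0 in these libraries. Hemgn was -0.44 ± 0.09 (SE, limma, adjusted p = 0.445), and its control mean was 4.23 times its SMA mean in FPKM. Gata1 was -0.30 ± 0.07 (limma, adjusted p = 0.445), with a ratio of 6.25. When each library was left out in turn, the estimates stayed between -0.56 and -0.33 for Hemgn and between -0.40 and -0.20 for Gata1. With a pseudocount of 0.1 they were -1.46 for Hemgn and -1.40 for Gata1. Epb42 was -0.20 ± 0.14 (limma, adjusted p = 0.713), with overlapping groups. Its estimate was 0.0126 without control replicate 1 and -0.41 without control replicate 3. Hemgn and Gata1 were lower in 3 of 3 SMA libraries than in both controls, and for each the exact two-sided permutation test over 10 assignments gave p = 0.1, the smallest it can give with 2 against 3 libraries. In this fit 2 of the 8 genes were lower in SMA at an unadjusted p under 0.05, against 4.23% of all genes. The groups did not overlap, with SMA lower, for 3 of the 8 genes (Fech, Hemgn and Gata1), against 11.1% of all genes. Both counts are small, and 0 of the 8 genes passed the adjusted threshold. In these 5 libraries Gata1 was at most 0.385 FPKM and Hemgn at most 0.661 FPKM, where the error from read counts is unknown. Relative to globin the order was the same. Hemgn was 0.358 and 0.352 in control replicates 1 and 3 and 0.0826 to 0.113 in SMA, and Gata1 was 0.112 and 0.329 against 0.0208 to 0.0543.

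**Figure D4:**
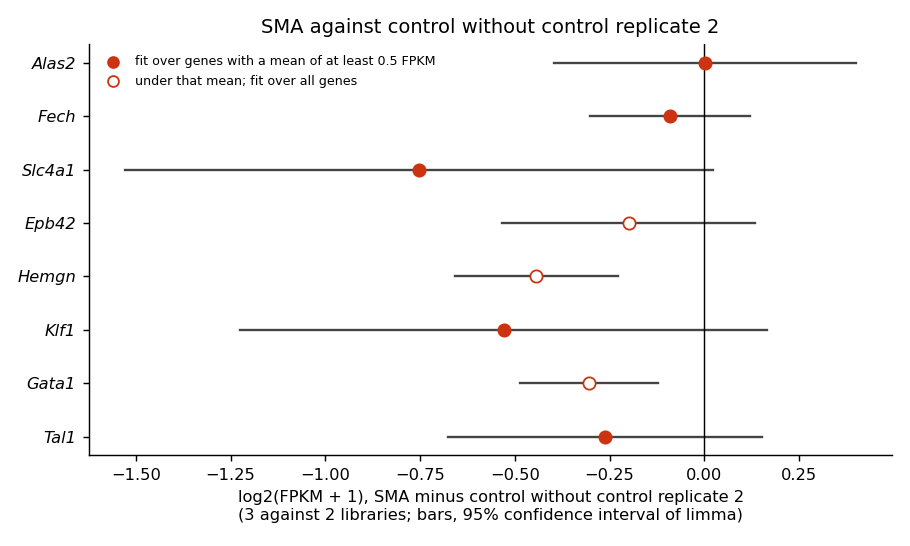
Difference in log2(FPKM + 1), SMA minus control without control replicate 2 (x axis), for the 8 erythroblast genes (y axis), where points are limma estimates from 3 SMA and 2 control libraries, bars are 95% confidence intervals, and open points are genes under the mean of 0.5 FPKM. The intervals of Hemgn (-0.66 to -0.23) and Gata1 (-0.49 to -0.12) lie below 0 before adjustment, and those of the other 6 genes include 0.

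Among the erythroid lists, limma without control replicate 2 called 0 genes at an adjusted p under 0.05. At an unadjusted p under 0.05, 0 of 9 heme enzymes, 5 of 12 iron and heme transport genes, 2 of 11 membrane genes, 2 of 11 regulators, 0 of 5 globins and 0 of 3 other erythroid genes passed, against 10.5% of all genes. The median log2 differences of these lists were -0.09, -0.11, -0.11, -0.24, -0.29 and -0.08, against 0.00 over all genes tested. The globin median includes the embryonic Hbb-bh1 (-1.14), which passed the filter through control replicate 1 alone. The adult globins were -0.15 for Hba-a1, -0.32 for Hba-a2, 0.06 for Hbb-bs and -0.29 for Hbb-bt. The iron genes were Tfrc (-0.29 ± 0.08), Glrx5 (-0.34 ± 0.09), Slc25a37 (-0.39 ± 0.14) and Snx3 (-0.18 ± 0.06), lower in SMA, and the heme exporter Flvcr1, named Mfsd7b in the files, at 0.31 ± 0.09. The membrane genes, both lower in SMA, included Ermap (-0.51 ± 0.20), and the regulators were Sox6 (-0.41 ± 0.09) and Lmo2 (-0.24 ± 0.08). Sox6 and Lmo2 are also expressed by cells of the spinal cord.

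In the same comparison 862 of all 16574 genes were lower and 874 higher in SMA at an unadjusted p under 0.05 in limma. Of the 8 endothelial genes, 5 were lower in SMA at an unadjusted p under 0.05 in limma (Cldn5, Pecam1, Kdr, Tie1 and Emcn), with a list median of -0.40, and 0 passed the adjusted threshold. The counts were 1 of 18 hepatocyte genes (Serpinc1), 1 of 5 neutrophil genes (Camp), 0 of 4 megakaryocyte genes, 0 of 3 V2b interneuron genes and, of the macrophage list, the 1 gene tested (Vcam1), each lower in SMA. Of 17 genes of spinal cord neurons and glia, Slc5a7, Slc6a5 and Aqp4 were lower and Slc32a1 and Hoxa7 higher. The part of these cell types in the values of the erythroblast genes was not tested.

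With all 6 libraries, the comparison the study made, control replicate 2 decides the estimates, and they are given as a description. The log2 differences, SMA minus control, were -1.19 for Alas2, -0.75 for Fech, -2.26 for Slc4a1, -1.29 for Epb42, -1.67 for Klf1, -1.23 for Gata1, -1.63 for Hemgn and -0.92 for Tal1, with standard errors from 0.52 to 1.21. All 8 genes passed the filter, Epb42, Hemgn and Gata1 only through control replicate 2. Since all 8 were picked for their level in that library, the counts of calls are no test of them. At an adjusted p under 0.05 limma called 0 of them, as it did 0% of all 17088 genes. At the study's thresholds it called 0 of them, against 0.170% of all genes. At an unadjusted p under 0.05, 0 of the 8 genes passed, and over all genes 409 were lower and 581 higher in SMA, or 565 and 528 with median ratio scaling and 386 and 338 after rescaling to the same summed FPKM. For Alas2 the estimate thus went from -1.19 with control replicate 2 to 0.00 without it, and for Hemgn from -1.63 to -0.44.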

How the data were processed

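Bulk-seq of 6 spinal cord libraries was analysed, 3 labelled control and 3 labelled SMA. FPKM values were computed by the authors for each library with cufflinks and hisat2, from strand-specific libraries depleted of ribosomal RNA, and deposited as 1 table per library. The submitters' processing notes name mm10, and versions of both tools are not given in the sources used here. Genes absent from a table were set to 0. Starts in the files, counted from 0, are printed counted from 1.

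On the log2(FPKM + 1) scale, genes averaging 0.5 FPKM or more across a fit's libraries were tested with lmFit and eBayes (trend) of limma 3.58.1 in R 4.3.3, two-sided, with Benjamini-Hochberg adjustment over all genes tested, without covariates. The count-based DESeq test of the study's methods was not used, since FPKM are not counts. The procedure was tested on simulated data. Single genes were also compared with an exact permutation test. Depth in reads is unknown, so intervals for counting error are not given.

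Lists were heme synthesis enzymes, iron and heme transport, red cell membrane, erythroid regulators, globins, other erythroid genes, hepatocyte, megakaryocyte, neutrophil, mast cell and eosinophil, erythroblastic island and liver macrophage, endothelial, V2b interneuron, and spinal cord neurons and glia. The erythroblast genes and all lists were chosen with earlier results of these data known. Genes named are the erythroblast genes, at most 3 genes per list with the highest mean FPKM, genes among the 5 most correlated with the mean of the erythroblast genes, genes among those of a count of 5 or fewer, and those said to be named after their values were seen. Alternatives were a pseudocount of 0.1, no filter or a minimum mean of 1 FPKM, rescaling to the same summed FPKM, median ratio scaling, quantile normalization, the replicate number as a block, and leaving out each library. The scale relative to adult globins was chosen after seeing the data.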

Additional observations from a re-analysis of the deposited data

How the results depend on the processing

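Without control replicate 2, 0 of the erythroblast genes passed an adjusted p under 0.05 in limma under any of the 12 alternatives, and the same held for the 13 alternatives with all libraries. At the study's thresholds and without control replicate 2, 0 erythroblast genes above the filter passed in any setting with 2 control libraries. Without control replicate 3, which leaves 1 control, the estimate of Slc4a1 was -1.25. With a pseudocount of 0.1 and no filter, Hemgn (-1.46, limma, unadjusted p = 0.00571) and Gata1 (-1.40, limma, unadjusted p = 0.00693) met these thresholds. With all libraries, where control replicate 2 decides the estimates, the count of erythroblast genes was 1 with a pseudocount of 0.1. It was 0 to 3 on leaving out a library, and these counts are no test of the genes. The median difference of control replicate 2 from the others was 5.18 with a pseudocount of 0.1 instead of 3.52 and moved by less than the spread between libraries under the other alternatives, with 3.46 to 3.57 on leaving out a library. Hemgn and Gata1 had the smallest exact p of 0.1, and rescaling to the same summed FPKM added Tal1, making 3 genes.

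Over all genes without control replicate 2, the adjusted calls numbered 2 and were 0 without the filter, 1 after rescaling to the same summed FPKM, 1 with median ratio scaling, and 0 to 43 on leaving out a library, the 43 arising without control replicate 1. Calls at the study's thresholds numbered 23, 174 with a pseudocount of 0.1 and 29 to 80 on leaving out a library. Calls at an unadjusted p under 0.05 numbered 1736 and 1057 to 2731 on leaving out a library. With all libraries the adjusted calls were 0, and 0 to 2 on leaving out a library, the 2 arising without control replicate 2. The other counts were 29 and 990, the first being 189 with a pseudocount of 0.1, and 16 to 144 and 339 to 1752 on leaving out a library. The cause of these shifts was not tested.

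The replicate number as a block (replicate block) gave 0 adjusted calls, 45 calls with the fold and 1106 without it in the 5 libraries, and 0, 48 and 659 in all 6. Deviations of same-numbered libraries from their group means correlated at r = -0.04, 0.02 and 0.08 across genes. For libraries of different numbers r was -0.06 to 0.04. The control means include control replicate 2, which stood apart, so these values cannot decide whether the numbers pair the libraries.

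Signs changed for Alas2, Epb42, Smn1 and Fech. Alas2 without control replicate 2 was 0.00 and became -0.00102 with median ratio scaling, -0.0429 after rescaling to the same summed FPKM, -0.0937 with the replicate block, and -0.24 to 0.24 on leaving out a library. With all libraries Alas2 was -1.19 and became 0.00150 without control replicate 2, the estimates on leaving out a library being -1.91 to 0.00150. Epb42, at -0.20 without control replicate 2, was -0.41 to 0.0126 on leaving out a library, with the opposite sign without control replicate 1. Smn1 with all libraries was -0.20 to 0.0136, with the opposite sign without control replicate 3. Relative to adult globins, added after seeing the data, Fech became 0.0144. Of 96 estimates for the erythroblast genes under alternatives without control replicate 2, 7 had the opposite sign. With a pseudocount of 0.1, Klf1 went from -0.53 to -1.28 and Epb42 from -0.20 to -0.63. Where a library left out leaves 1 control, that library is assumed to vary like the SMA libraries. Values under 1 FPKM, among them Gata1, Hemgn and Epb42 in 5 libraries, are limited by an unknown depth.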

Other observations

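Embryonic globins, which primitive red cells of the yolk sac express, did not follow the erythroblast genes. Hbb-bh1 was 3.82 FPKM in control replicate 1 and listed at 0 in the other 5 libraries. Hbb-y was 2.08 FPKM in control replicate 1, 0.0894 FPKM in control replicate 2 and listed at 0 in the rest. Hba-x was 1.56 FPKM in control replicate 1, 0.0804 FPKM in SMA replicate 1 and listed at 0 in the rest. These genes were named after their values were seen. Control replicate 1 was also the library with the highest level of 7 of the 8 erythroblast genes among the 5 libraries other than control replicate 2. Its hepatocyte sum, 113 FPKM, was below the 131 FPKM of SMA replicate 2, so the order of these 2 libraries was not the same for both groups of genes.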
